A study of Arabidopsis thaliana with 12 samples.

Results

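A set of 4 nuclear genes of antioxidant defence, ascorbate synthesis and copper handling were followed in Arabidopsis thaliana, each through a probe that the platform's annotation assigns to that gene alone. They were CCS (AT1G12520, probe 347), CUTA (AT2G33740, probe 3247), GLDH (AT3G47930, probe 592) and AT3G52960 (probe 1966), the type II peroxiredoxin gene called PRXIIE here. All 4 were found among the 692 probes with a single gene (690 loci), out of 3439 probes on the array, and all 4 passed the filter on dim probes. The samples were total RNA of wild-type plants of ecotype Columbia 0, with 6 recovered samples and 6 control samples. Recovered plants had received light of 1000 µE for 1 h and were then kept for 48 h at 80 µE, whereas control plants grew at 80 µE and were sampled at the 0 h start. The labels state neither the organ nor the age of the plants, and no genetic or chemical treatment was named in either group. The light exposure and the 48 h of further growth and time of harvest differed together between the groups, so they cannot be told apart.

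Light in excess of what photosynthesis can use feeds electrons to oxygen, and chloroplasts remove the resulting superoxide and hydrogen peroxide by enzyme chains. CCS is the copper chaperone that loads copper into Cu/Zn superoxide dismutases, which turn superoxide into hydrogen peroxide. CUTA encodes a plastid protein of a copper-binding family named after the bacterial CutA protein, which was linked to copper tolerance in Escherichia coli. GLDH, L-galactono-1,4-lactone dehydrogenase, carries out the last step of ascorbate synthesis on the inner mitochondrial membrane, and ascorbate is the reductant of the peroxidases that remove hydrogen peroxide. PRXIIE is a chloroplast peroxiredoxin, which reduces peroxides through a reactive cysteine.

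The deposited intensities summed to between 2874 and 3406 per sample, and values under 0.0322 were raised to that floor, which 82.3% to 93.1% of the probes exceeded. The array medians were uneven, with log2 medians of -1.23 to -1.13 in recovered 1, 2, 5 and 6, of -2.35 and -2.34 in recovered 4 and 3, and of -2.32 to -1.82 in the controls. Values below are log2 intensities after quantile normalisation, which removes this shift, unless they are called deposited intensities. Within a group, adjacent numbers (1 with 2, 3 with 4, 5 with 6) resembled one another most, with Pearson's r across probes of 0.854 to 0.939, against 0.650 to 0.794 for other samples of a group. Nothing in the labels states whether samples of a group were separate plants or repeat readings, so the tests over 6 samples may count technical spread only. For that reason each gene is also given within adjacent numbers. Less RNA per cell and fewer cells of a type cannot be told apart in such samples.

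None of the 4 genes passed at an adjusted p under 0.05 in the limma fit over all 3177 tested probes, where 2.17% of the probes did. CCS, CUTA and GLDH had lower means after recovery, and PRXIIE had no settled direction. The unadjusted p was under 0.05 for 3 of the 4, against 18.3% of all tested probes. By unadjusted p, CCS ranked 96 among the 3177 probes, CUTA 137, GLDH 303 and PRXIIE 2316. The genes were selected with earlier results of these data known, so the count of 3 is a description. The plot of all tested probes places the 4 genes among the rest.

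**Figure D1:**
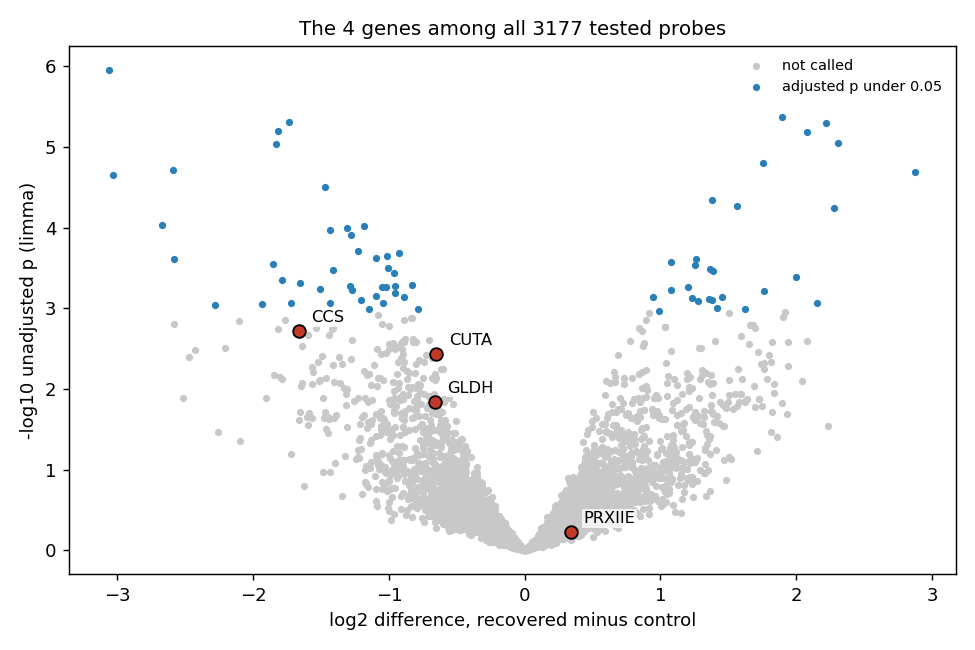
Each point is 1 of the 3177 tested probes, with the log2 difference (recovered minus control) on the x axis and the -log10 of the unadjusted limma p on the y axis. Blue points are the 69 probes with an adjusted p under 0.05, and the 4 genes (red) all lie below them, CCS at -1.67, CUTA at -0.65, GLDH at -0.66 and PRXIIE at 0.34.

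CUTA separated the groups without overlap. Its deposited intensity was 3.82, 4.14, 4.19, 4.41, 4.47 and 4.92 in the recovered samples 5, 6, 3, 4, 1 and 2, against 6.73, 6.79, 6.94, 7.09, 7.38 and 7.41 in controls 1, 4, 3, 6, 2 and 5. The highest recovered sample thus lay below the lowest control before quantile normalisation. The probe was bright on every array, at percentiles 97.0 to 97.9 of the array's probes in recovered samples and 98.3 to 98.5 in controls. On the log2 scale CUTA was at 2.14 ± 0.16 in recovered samples and 2.79 ± 0.08 in controls (SD, n = 6 each), with a lowest, median and highest value of 2.01, 2.08 and 2.42 in recovered samples and 2.72, 2.79 and 2.87 in controls. These SDs were small beside the medians over all tested probes, 0.65 in recovered samples and 0.72 in controls. Quantile normalisation gave controls 1, 3 and 4 an identical value, and likewise controls 5 and 6, because the probe held the same rank on those arrays.

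The difference in CUTA was -0.65 (SE 0.18), or 1.57-fold lower after recovery (95% interval 1.19 to 2.07), with a limma adjusted p of 0.0864. Lower values without overlap between the groups were seen for 2.93% of the tested probes. By number, 6 of 6 pairs were lower after recovery, as were 9.88% of the probes. The paired differences were -0.50 and -0.42 for numbers 1 and 2, -0.71 and -0.66 for 3 and 4, and -0.83 and -0.78 for 5 and 6. Each adjacent set of numbers thus had a mean difference below 0, at -0.46, -0.68 and -0.81, which held for 18.5% of the probes. An exact two-sided permutation test over the 12 samples gave p = 0.00216, the smallest that 924 regroupings allow. The exact sign-flip test of the 6 paired differences gave p = 0.0312, the smallest that 64 allow. Groups without overlap and 6 of 6 lower pairs fix these p-values, so they add nothing to those counts. Both tests also treat adjacent numbers as separate samples. With each adjacent set averaged, leaving 3 values per group, where 5.16% of the probes had an unadjusted p under 0.05, limma gave CUTA one of 0.129 (adjusted p = 0.837). With adjacent numbers as a fixed block CUTA passed (adjusted p = 0.0196), as did 7.37% of the probes in the same direction, in a fit that still counts adjacent numbers as separate samples. With adjacent numbers as a random block CUTA did not pass (adjusted p = 0.462). Aligning array medians in place of quantile normalisation made the difference -1.27, or 2.40-fold, still above the threshold (adjusted p = 0.0511). With the deposited scaling kept it was -0.71 (limma adjusted p = 0.0951), where the median of all probes was 0.47.

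**Figure D2:**
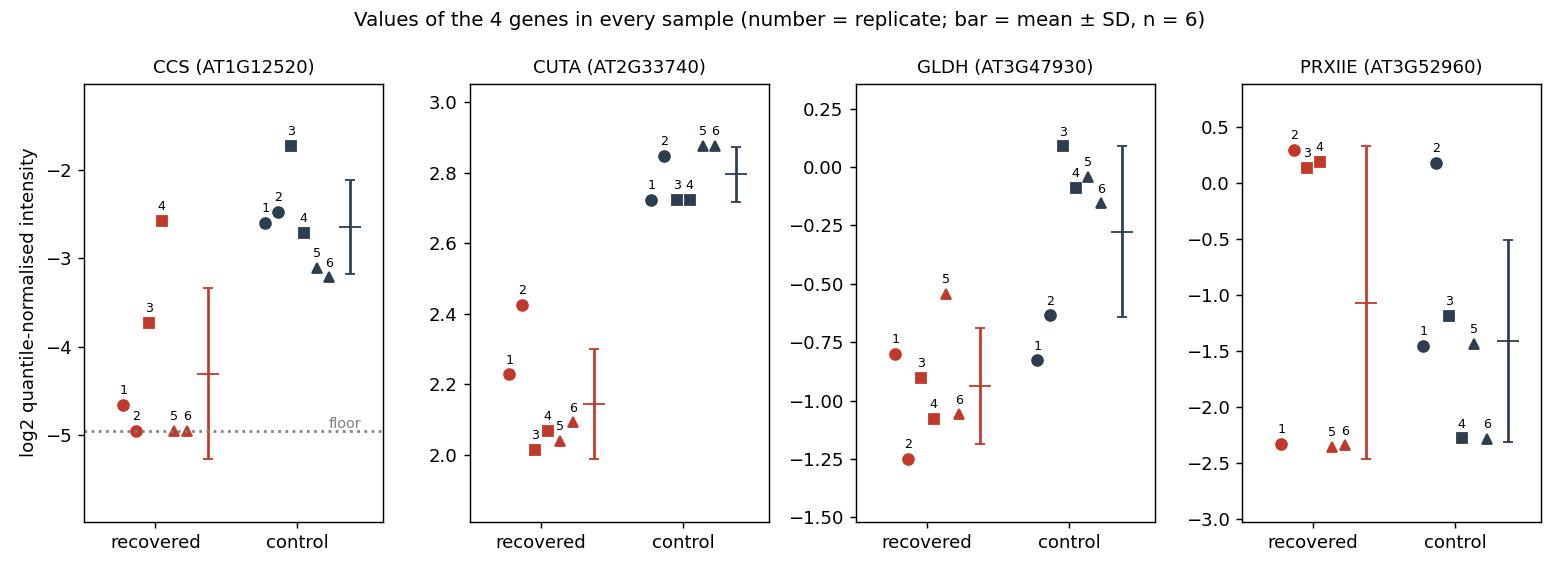
Log2 quantile-normalised intensity (y axis) of CCS, CUTA, GLDH and PRXIIE in the 6 recovered and 6 control samples; each point is a sample marked with its replicate number, equal shapes mark adjacent numbers, the bar is the mean ± SD, and the dotted line in the CCS panel is the floor at -4.95. The groups do not overlap for CUTA, overlap through recovered 4 for CCS and through controls 1 and 2 for GLDH, and overlap widely for PRXIIE.

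CCS was measured by a dim probe, and after quantile normalisation most recovered samples lay below the controls. Its deposited intensity was between 0.0429 (recovered 5) and 0.1005 (recovered 4) in recovered samples, with a mean of 0.0652 ± 0.0250, and between 0.0604 (control 6) and 0.222 (control 3) in controls, with a mean of 0.125 ± 0.0625 (SD, n = 6 each). Before quantile normalisation the groups overlapped more. Recovered 1 (0.0917) and recovered 4 lay above controls 5 (0.0632) and 6, and recovered 2 (0.0613) lay above control 6. The probe lay at percentiles 9.04 to 32.0 of the array in recovered samples and 22.3 to 50.8 in controls. After quantile normalisation recovered 2, 5 and 6 were set to the floor of -4.95, although their deposited intensities lay above it. The other recovered samples were at -4.66, -3.73 and -2.58, and the controls ranged from -3.22 to -1.73 with a median of -2.66. Recovered 4, the highest of its group, lay above controls 1, 4, 5 and 6, and the remaining recovered samples lay below every control.

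The log2 mean of CCS was -4.31 ± 0.97 in recovered samples and -2.64 ± 0.53 in controls. The difference of -1.67 (SE 0.43) corresponds to 3.17-fold lower (95% interval 1.66 to 6.04) with a limma adjusted p of 0.0631. Its size depends on the floor, at which values have no order, and on the scaling. With the deposited scaling kept it was -0.87, or 1.83-fold (adjusted p = 0.227), where the median of all probes was 0.47. The recovered sample was below its same-numbered control in 5 of 6 pairs, by -2.48 to -1.74, and above it by 0.13 for number 4. At least 5 of 6 pairs were lower for 20.2% of the probes. Without recovered 4 alone, CCS was at -2.01 and passed (adjusted p = 0.0135). Recovered 4 was the highest of its group, so leaving it out was bound to widen the difference. It was the only 1 of 12 single removals to pass, and the limma adjusted p reached 0.142 in the others. Without recovered 3 and 4 CCS was at -2.24 (adjusted p = 0.00341). In that fit 831 of 3177 probes had an unadjusted limma p under 0.05, against 580 with all samples. Recovered 3 was the next highest of its group, so this removal was also bound to widen the difference. Over the 6 removals of an adjacent set the adjusted p reached 0.244. Within adjacent numbers the difference was -2.27 for 1 and 2, -0.94 for 3 and 4 and -1.79 for 5 and 6, and recovered 3 and 4 lay 1.15 apart, a gap that 8.28% of the probes reached or exceeded. The exact permutation test over samples gave p = 0.0130, and the exact sign-flip test of the pairs p = 0.0625. CCS passed with array weights (-1.96, adjusted p = 0.00542), where 92 of 3177 probes were called higher and 147 lower. It also passed with adjacent numbers as a fixed block (adjusted p = 0.00759), where 7.37% of the probes were called lower. It missed the threshold with a replicate block (adjusted p = 0.0505), where 2.68% of the probes passed. With adjacent numbers averaged, the unadjusted limma p was 0.0213 (adjusted p = 0.837), and as a random block the adjusted p was 0.436.

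**Figure D3:**
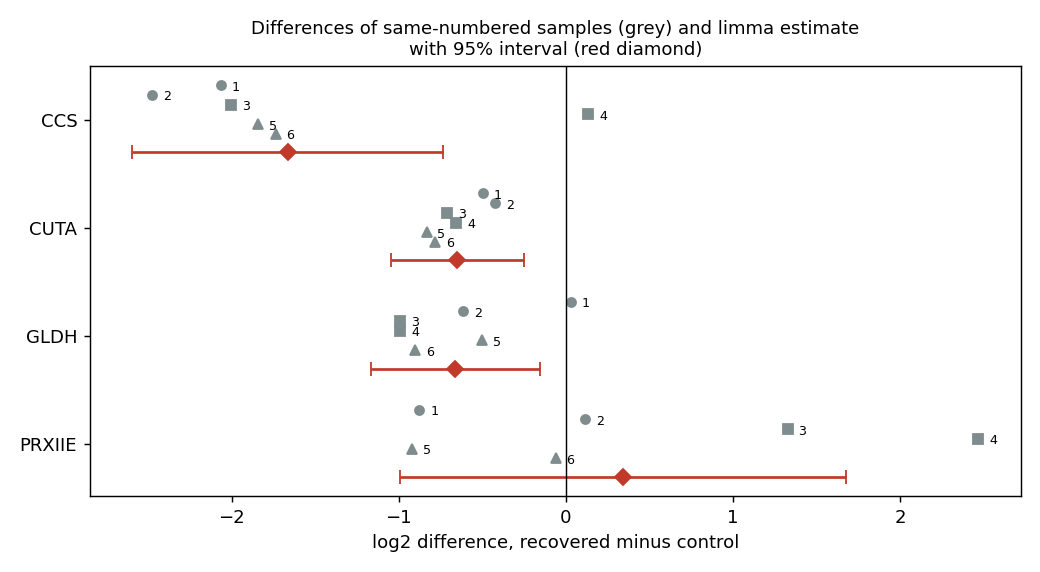
Log2 difference, recovered minus control (x axis), for each pair of same-numbered samples (grey, numbered, equal shapes for adjacent numbers) and the limma estimate with its 95% interval (red diamond) for the 4 genes. All 6 CUTA pairs lie left of 0, CCS has 1 pair right of 0 (number 4, 0.13), GLDH has 1 (number 1, 0.03), and PRXIIE has 3 on each side.

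GLDH was close to CUTA in the size of its difference but varied more among samples. It was at -0.94 ± 0.25 in recovered samples and -0.28 ± 0.37 in controls (SD, n = 6 each). The lowest, median and highest values were -1.25, -0.98 and -0.54 in recovered samples and -0.83, -0.12 and 0.09 in controls. Controls 3, 4, 5 and 6 lay above every recovered sample, at -0.16 or higher, whereas controls 1 and 2 at -0.83 and -0.64 lay within the recovered range. The difference was -0.66 (SE 0.23), or 1.58-fold lower (95% interval 1.11 to 2.25), with a limma adjusted p of 0.150. It was smaller with the deposited scaling kept, at -0.37 (adjusted p = 0.494), and with array weights, at -0.39 (adjusted p = 0.301). With array medians aligned it was larger, at -0.93 (limma adjusted p = 0.108).

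By number, GLDH differed by 0.03 and -0.61 for 1 and 2, by -0.99 in both pairs of 3 and 4, and by -0.50 and -0.90 for 5 and 6. Thus 5 of 6 pairs were lower after recovery, a count that 20.2% of the probes reached or exceeded. In deposited intensity the recovered sample was the higher for number 1 (0.786 against 0.558) and for number 5 (0.863 against 0.747). Among deposited intensities the groups overlapped more, at 0.345 to 0.863 in recovered samples and 0.558 to 1.02 in controls. There the means were 0.606 ± 0.204 in recovered samples and 0.758 ± 0.169 in controls. The exact permutation test over samples gave p = 0.0130 and the sign-flip test of pairs an exact p of 0.0625. GLDH passed with adjacent numbers as a fixed block (adjusted p = 0.0438), where 7.37% of the probes were called lower. It also passed within numbers 3 and 4 alone (adjusted p = 0.0376), where 13.8% were called lower. The fit within 3 and 4 takes its error from the spread between adjacent numbers. The error of the fixed-block fit also holds the variation of the difference between the sets of numbers. GLDH did not pass within 1 and 2 (adjusted p = 0.486) or 5 and 6 (adjusted p = 0.199). With adjacent numbers averaged, limma gave an unadjusted p of 0.148, and as a random block an adjusted p of 0.661. Whether the difference itself varied between the sets of numbers was not tested.

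PRXIIE split the samples in a way that did not follow the group. In each group the split divided number 1 from 2 but kept 3 with 4 and 5 with 6. Recovered 2, 3 and 4 were at 0.29, 0.14 and 0.18, and control 2 was at 0.18. The other 8 samples lay between -2.36 and -1.19, with recovered 1, 5 and 6 at -2.33, -2.36 and -2.35. No sample had a value between -1.19 and 0.14. In deposited intensity, recovered 2, 3 and 4 were at 1.37, 1.01 and 1.05 and the other recovered samples at 0.292 to 0.330, while control 2 was at 1.21 and the other controls at 0.132 to 0.360. The high and low values thus stood apart before quantile normalisation.

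The mean of PRXIIE was -1.07 ± 1.40 in recovered samples and -1.41 ± 0.91 in controls (SD, n = 6 each). The difference of 0.34 (SE 0.62) had a 95% interval from 0.502-fold to 3.20-fold, a limma adjusted p of 0.809 and an exact permutation p of 0.591. The paired differences ran from -0.92 for number 5 to 2.47 for number 4, with 3 pairs higher and 3 lower. Within numbers 3 and 4 PRXIIE was higher after recovery by 1.90 (adjusted p = 0.0591), against -0.38 within 1 and 2 and -0.49 within 5 and 6. With array weights the difference was -0.44, and without recovered 3 and 4 it was -0.27. With the deposited scaling kept it was 0.97, where the median of all probes was 0.47.

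Number 2 exceeded number 1 in PRXIIE in each group, by 2.63 in recovered samples and by 1.63 in controls. Gaps of that size were uncommon: 2.14% of the tested probes differed as much between recovered 1 and 2, and 5.76% between controls 1 and 2. Controls 3 and 4 lay 1.09 apart and controls 5 and 6 0.85 apart, whereas recovered 3 and 4 differed by 0.05 and recovered 5 and 6 by 0.01. The median gap between adjacent numbers over all tested probes was 0.29.

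**Figure D4:**
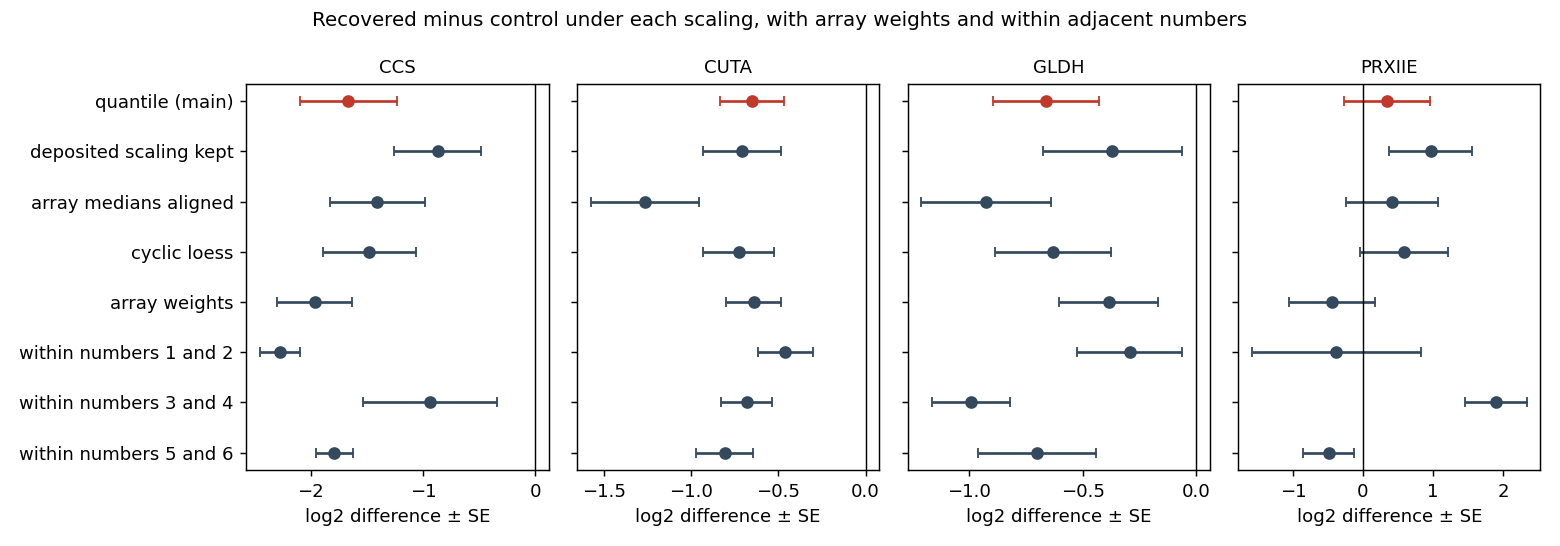
Log2 difference, recovered minus control, ± SE (x axis) for CCS, CUTA, GLDH and PRXIIE with quantile normalisation (red), with 3 other scalings, with array weights and within each set of adjacent numbers (y axis). CCS, CUTA and GLDH lie left of 0 in each setting shown, and PRXIIE runs from -0.49 to 1.90.

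Across the 12 samples the 4 genes did not share one pattern. Pearson's r was 0.66 between GLDH and CUTA, 0.62 between CCS and CUTA and 0.54 between CCS and GLDH. After the group means were taken out these became -0.25, -0.47 and -0.08, so the positive values came with the difference between the groups. PRXIIE had r of -0.44 with GLDH, 0.24 with CCS and -0.09 with CUTA, and within groups -0.50, 0.56 and 0.20. These are descriptions over samples that share arrays and normalisation, with adjacent numbers closely alike.

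For each gene the 3 most similar of the 630 other tested probes with a single gene were taken by r over the 12 samples. CUTA was matched most closely by AT1G62250, with r = 0.98, and 0.84 within groups. AT1G62250 itself differed by -0.60 (SE 0.18, limma adjusted p = 0.109). The next matches of CUTA were AT2G46630 (r = 0.91) and AT3G56290 (r = 0.90), both called lower after recovery with 6 samples per group. In that fit 41 of the 3177 tested probes were called lower. CUTA separated the groups, so choosing by r over the 12 samples favours probes that differ in the same direction. The calls are therefore a description only. AT2G46630 had a log2 difference of -1.74 (limma adjusted p = 0.00349) and AT3G56290 one of -1.83 (limma adjusted p = 0.00362). These calls were lost with adjacent numbers averaged (adjusted p = 0.629 and 0.705) and as a random block (adjusted p = 0.173 and 0.0693). Their r with CUTA within groups was 0.13 and 0.15.

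CCS was matched by AT4G18180 (r = 0.92), by AT4G02580 (r = 0.90), which encodes a subunit of mitochondrial complex I, and by AT1G13370 (r = 0.88), a histone H3 gene. None of these passed, with differences of -1.49, -1.66 and -1.16. GLDH was matched by AT4G20300 (r = 0.91), by APS4 (r = 0.89), an ATP sulfurylase gene of sulphate assimilation, and by GH9B8 (r = 0.89), of a glycosyl hydrolase family. Their differences were -0.61, -0.89 and -1.40, with adjusted p of 0.170, 0.175 and 0.120 in limma. PRXIIE was matched less closely, by AT5G10910 (r = 0.82), AT1G17850 (r = 0.75) and AT3G14890 (r = 0.71), with differences of -0.04, 0.06 and 0.76.

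The wider pathways were sparsely represented by probes with a single gene. Of 103 loci listed for superoxide dismutases, copper handling, ascorbate synthesis, the ascorbate-glutathione cycle with catalases, and peroxiredoxins with thioredoxins, 6 had such a probe. All 6 were tested and 0 passed in limma in either direction, with CCS, CUTA and GLDH at an unadjusted p under 0.05, against 2.17% and 18.3% of all tested probes. Their median difference was -0.30, beside 0.00 for all tested probes, and 4 of the 6 are the genes described above. The Cu/Zn superoxide dismutases that CCS supplies, the ascorbate peroxidases and the catalases were not analysed here. Of the leaf mesophyll markers 1 of 3 was measured, and of the markers of other cell types and of light stress none of 7 and none of 2.

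The remaining 2 loci were SRX, the sulfiredoxin that repairs over-oxidised peroxiredoxins, and NTRC, the chloroplast thioredoxin reductase that supplies reducing power to peroxiredoxins. SRX was at -1.95 ± 0.39 in recovered samples and -2.31 ± 0.92 in controls (SD, n = 6 each), a difference of 0.36 (SE 0.40, limma adjusted p = 0.672) with 3 of 6 pairs higher. Control 4 stood far below the other controls of SRX, at -4.09. NTRC was at -1.26 ± 0.75 in recovered samples and -1.32 ± 0.68 in controls, a difference of 0.06 (SE 0.40, limma adjusted p = 0.956). Its difference ran in opposite directions in the sets of adjacent numbers, at 0.21 for 1 and 2, -1.58 for 3 and 4 and 1.54 for 5 and 6. In PRXIIE, with 1.90 for 3 and 4 and -0.49 for 5 and 6, the signs in those sets were the reverse of those in NTRC. Neither contrast between the sets of numbers was tested.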

How the data were processed

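Transcript levels were measured on arrays in 12 samples, grouped by title. The deposited values are intensity values on a linear scale; what the authors did for background, scaling or averaging of spots is not given in the sources used here. The number of unused sample columns was 0. Precision is limited by how many arrays there are.

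After quantile normalisation, intensities under a floor of 0.0322, the 5th percentile of positive deposited values, were raised to it before log2 was applied. Probes whose deposited value exceeded the floor in at least 6 of 12 samples were tested, which kept 3177 and left out 262. The two-sided test of recovered minus control used lmFit and eBayes of limma 3.58.1, run in R 4.3.3. Benjamini-Hochberg adjustment ran over all tested probes at 0.05. The procedure was tried on simulated data with independent samples. That trial cannot show how it behaves with adjacent numbers as alike as they were here. Permutation tests of single genes are exact and unadjusted. The platform annotation gave 692 probes 1 gene, 870 several and 1877 none, with loci and symbols from the RefSeq table of assembly TAIR10.1. No coordinates are printed, as the labels do not state the build of the probes. A probe may also detect near-identical family members.

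The text names the 4 genes, the 3 most similar genes of each, and each listed pathway locus with its own probe, chosen with earlier results of these data known. Same-numbered samples deviated together from their group means (r of 0.111 to 0.487 in the 6 pairs), so equal numbers were treated as pairs, a pairing that comes from the data and the titles. Alternatives were other scalings, floors and filters, array weights, a variance trend, the replicate block, treatments of adjacent numbers, and samples left out.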

Additional observations from a re-analysis of the deposited data

Results flagged for a closer look

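Of 12 sets of 6 values (the 4 genes, SRX and NTRC in each group), 1 held a sample that stood apart from the rest. This was judged by the gap to its nearest neighbour as a share of the set's range. For 6 independent values chance flags about 1 in 20, but adjacent numbers were closely alike here. It was control 4 of SRX, at -4.09 where the nearest other control lay at -2.25, a gap of 0.706 of the range.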

How the results depend on the processing

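Leaving out the 2 samples of an adjacent set of numbers was chosen after seeing the data. CCS, CUTA and GLDH had a value below 0 in each of the 25 alternatives whose estimate could differ from that reported; the other 8 for CCS and 9 for CUTA and GLDH change only the error or the test. Among the 25, 12 left out 1 sample and 6 left out 2, so they reuse the reported values and are not separate support. For CUTA, whose groups do not overlap, leaving out samples could not turn the sign at all. PRXIIE turned to -0.44 with array weights, -0.38 within numbers 1 and 2, -0.49 within 5 and 6 and -0.27 without recovered 3 and 4. Past the threshold came CCS with array weights (-1.96), with adjacent numbers as a fixed block (-1.67), within numbers 1 and 2 (-2.27, adjusted p = 0.0453), without recovered 4 (-2.01) and without recovered 3 and 4 (-2.24); GLDH with that block (-0.66) and within 3 and 4 (-0.99); and CUTA with that block, without the filter on dim probes (adjusted p = 0.0278) and with a variance trend (0.0131), all at -0.65, and with array weights (-0.64, adjusted p = 0.0276). Leaving out 1 sample put CCS between -2.01 and -1.48, CUTA between -0.71 and -0.62, GLDH between -0.77 and -0.59 and PRXIIE between 0.07 and 0.66. In the replicate block, the exact sign-flip test of pairs left CCS (-1.67) and GLDH (-0.66) at p = 0.0625, and the limma fit changed no call of the 4 genes (adjusted p = 0.0505, 0.0874, 0.117 and 0.683 for CCS, CUTA, GLDH and PRXIIE). CCS could not be tested with the floor at the 20th percentile, since too few of its samples lay above it.

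The 28 higher and 41 lower probes (40.6% higher) became 29 and 6 with the deposited scaling kept (82.9%), 17 and 54 with medians aligned (23.9%), 47 and 74 with the floor at the 20th percentile, 41 and 62 without the filter, 92 and 147 with array weights, 43 and 66 with a variance trend, and 42 and 43 with the replicate block. Adjacent numbers gave 0 and 0 when averaged (164 probes at an unadjusted p under 0.05), 167 and 234 as a fixed block and 0 and 1 as a random block (268 at an unadjusted p under 0.05). The counts were 13 and 35 within numbers 1 and 2, 400 and 440 within 3 and 4, and 0 and 0 within 5 and 6 in limma (942 at an unadjusted p under 0.05). Leaving out 1 sample gave 9 to 30 higher and 10 to 38 lower, and apart from recovered 3 and recovered 4 each removal lowered both counts by over 1.5 times. The cause was not tested. The CCS probe was dim, and quantile normalisation set 3 of 6 recovered samples to the floor. The deposited intensities of those samples lay above it, which limits the value of the CCS difference.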
